A study of Mus musculus with 2 samples.

Results

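The genes described here are 7 chemokines (Cxcl1, Cxcl2, Ccl2, Ccl3, Ccl4, Ccl5 and Ccl7) and 3 inflammatory cytokines (Tnf, Il1b and Il6). They were chosen by symbol, and all 10 were found among the 32285 genes of the files. They were measured by droplet-based 3′ single-cell RNA sequencing of the whole pituitary of male mice of the inbred strain C57BL/6, with no further allele or treatment named. The old library pooled 10 glands of mice of 20 months, and the young library pooled 10 glands of mice of 2 months. The glands were minced, dissociated with enzymes and freed of red blood cells by lysis before capture. The comparison asks how expression in the cells of the gland differs with age. With 1 pooled library per age no difference between the ages could be tested, and no value has a replicate check.

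Chemokines are small secreted proteins that attract leukocytes. Cxcl1 and Cxcl2 act on Cxcr2 and draw neutrophils, Ccl2 and Ccl7 act on Ccr2 and draw monocytes, and Ccl3, Ccl4 and Ccl5 draw macrophages and T cells. Tnf, interleukin 1 beta (Il1b) and interleukin 6 (Il6) turn on inflammatory genes in the cells that receive them, and NF-kB is a transcription factor known to drive many genes of this kind. Myeloid cells are known producers of most of them, and in the pituitary interleukin 1 and interleukin 6 are known to act on the release of adrenocorticotropic hormone.

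The promoters of 4 members are shown because Cxcl1 and Cxcl2, neighbours on chromosome 5, hold the same NF-kB sequence while most of their UMIs lay in different classes of cells. Each is the 250 bases before the RefSeq transcription start, read 5′ to 3′ on the strand of the gene, on build GRCm38.p6. The submitters' notes name another build, GRCm39. Capitals mark matches to the NF-kB decamer consensus, searched on both strands. Cxcl1 is at chr5:90890995-90891244 (+), Cxcl2 at chr5:90903649-90903898 (+), Il6 at chr5:30012864-30013113 (+) and Il1b at chr2:129371140-129371389 (-).
Cxcl1: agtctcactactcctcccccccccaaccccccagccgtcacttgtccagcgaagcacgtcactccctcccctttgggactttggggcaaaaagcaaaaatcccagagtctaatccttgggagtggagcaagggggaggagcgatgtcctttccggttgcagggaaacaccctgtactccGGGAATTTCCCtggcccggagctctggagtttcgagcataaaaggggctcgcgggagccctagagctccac
Cxcl2: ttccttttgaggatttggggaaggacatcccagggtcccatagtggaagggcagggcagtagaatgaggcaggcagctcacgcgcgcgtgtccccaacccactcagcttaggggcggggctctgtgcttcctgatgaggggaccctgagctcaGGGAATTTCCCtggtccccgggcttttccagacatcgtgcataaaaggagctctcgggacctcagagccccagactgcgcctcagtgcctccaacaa
Il6: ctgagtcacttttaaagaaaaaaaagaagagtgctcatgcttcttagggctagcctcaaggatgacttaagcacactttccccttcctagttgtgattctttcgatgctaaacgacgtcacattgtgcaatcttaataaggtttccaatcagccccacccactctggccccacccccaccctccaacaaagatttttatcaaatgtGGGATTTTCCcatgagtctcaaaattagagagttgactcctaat
Il1b: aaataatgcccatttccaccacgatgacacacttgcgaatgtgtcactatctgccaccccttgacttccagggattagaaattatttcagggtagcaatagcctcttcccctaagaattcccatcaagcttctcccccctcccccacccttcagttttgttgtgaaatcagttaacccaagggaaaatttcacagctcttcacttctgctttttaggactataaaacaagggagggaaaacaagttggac
Cxcl1 and Cxcl2 both hold GGGAATTTCCC, which is a pair of matches offset by 1 base, beginning 71 bases before the start of Cxcl1 and 97 before that of Cxcl2. Il6 holds GGGATTTTCC, 44 bases before its start, and the AP-1 motif TGAGTCA, 249 bases before it. Il1b, Ccl3 and Tnf held no match to the decamer in this window. TATAAA lies 31 bases before the start of Il1b and 29 before that of Tnf. Of 32851 mouse promoters of the same length, 7.25% hold the decamer, 4.46% hold TGAGTCA and 12.4% hold TATAAA, on either strand. The promoter table matched 6 of the 10 members, the others being Ccl2, Ccl4, Ccl5 and Ccl7.

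The old library yielded 138427393 UMIs (unique molecular identifiers, by which captured transcripts are counted) and the young library 154510099. After filtering, 9017 old and 8531 young barcodes remained, with a median of 3157 and of 6317 UMIs. A cluster of 5541 old barcodes and 1 young barcode had the profile of near-empty droplets and was set aside as free RNA, which left 3476 old and 8530 young cells. Among these a cluster of 198 old and 300 young cells led by Gh stayed unnamed. Among the kept barcodes 26 sequences occurred in both libraries. Barcodes of at most 100 UMIs, which hold RNA free in the suspension, summed to 26933036 UMIs in the old and 4237840 in the young library. Barcodes of 500 to 900 UMIs numbered 16496 in the old and 58887 in the young library, and summed to 11577567 and 40596018 UMIs. The amount of free RNA can thus not be compared from either band alone. Levels are given as CPM, scaled to a fixed total per class and library after 7 hormone genes and 13 mitochondrial genes were taken out. Ranges in parentheses are 95% intervals of counting error alone and do not cover differences between mice, pools or preparations. A gene was called higher or lower in the old library where it had at least 20 UMIs over both libraries, a ratio of at least 2-fold and an interval that left out 1. Shares of cells with a UMI were taken after each cell was thinned to 2000 UMIs.

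Most members were immune cell transcripts at both ages. Of the UMIs found in cells, the macrophage-, monocyte-, neutrophil-, T or NK cell- and B cell-like classes held 96.3% in the old and 96.5% in the young library for Cxcl2, 95.2% and 97.9% for Ccl4, and 96.9% and 97.4% for Il1b. For Ccl7, a gene with few UMIs, they held 85% of 100 old UMIs and 87.8% of 148 young ones. Cxcl1 was placed differently. In the old library 18.8% of its 592 UMIs in cells lay in immune classes, 45.6% in stem cell-like cells and 21.5% in endocrine classes. In the young library 4.80% of its 2040 UMIs lay in immune classes, 15.8% in stem cell-like cells and 76.1% in endocrine classes. Such shares also depend on the size of the classes. Endocrine classes held 1902 of 3476 old and 5752 of 8530 young cells, and immune classes 811 and 1140. Stem cell-like cells were 7.97% of the old and 11.4% of the young cells. Il6 had 78 UMIs in old and 24 in young cells, 48.7% and 16.7% of them in stem cell-like cells.

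**Figure D1:**
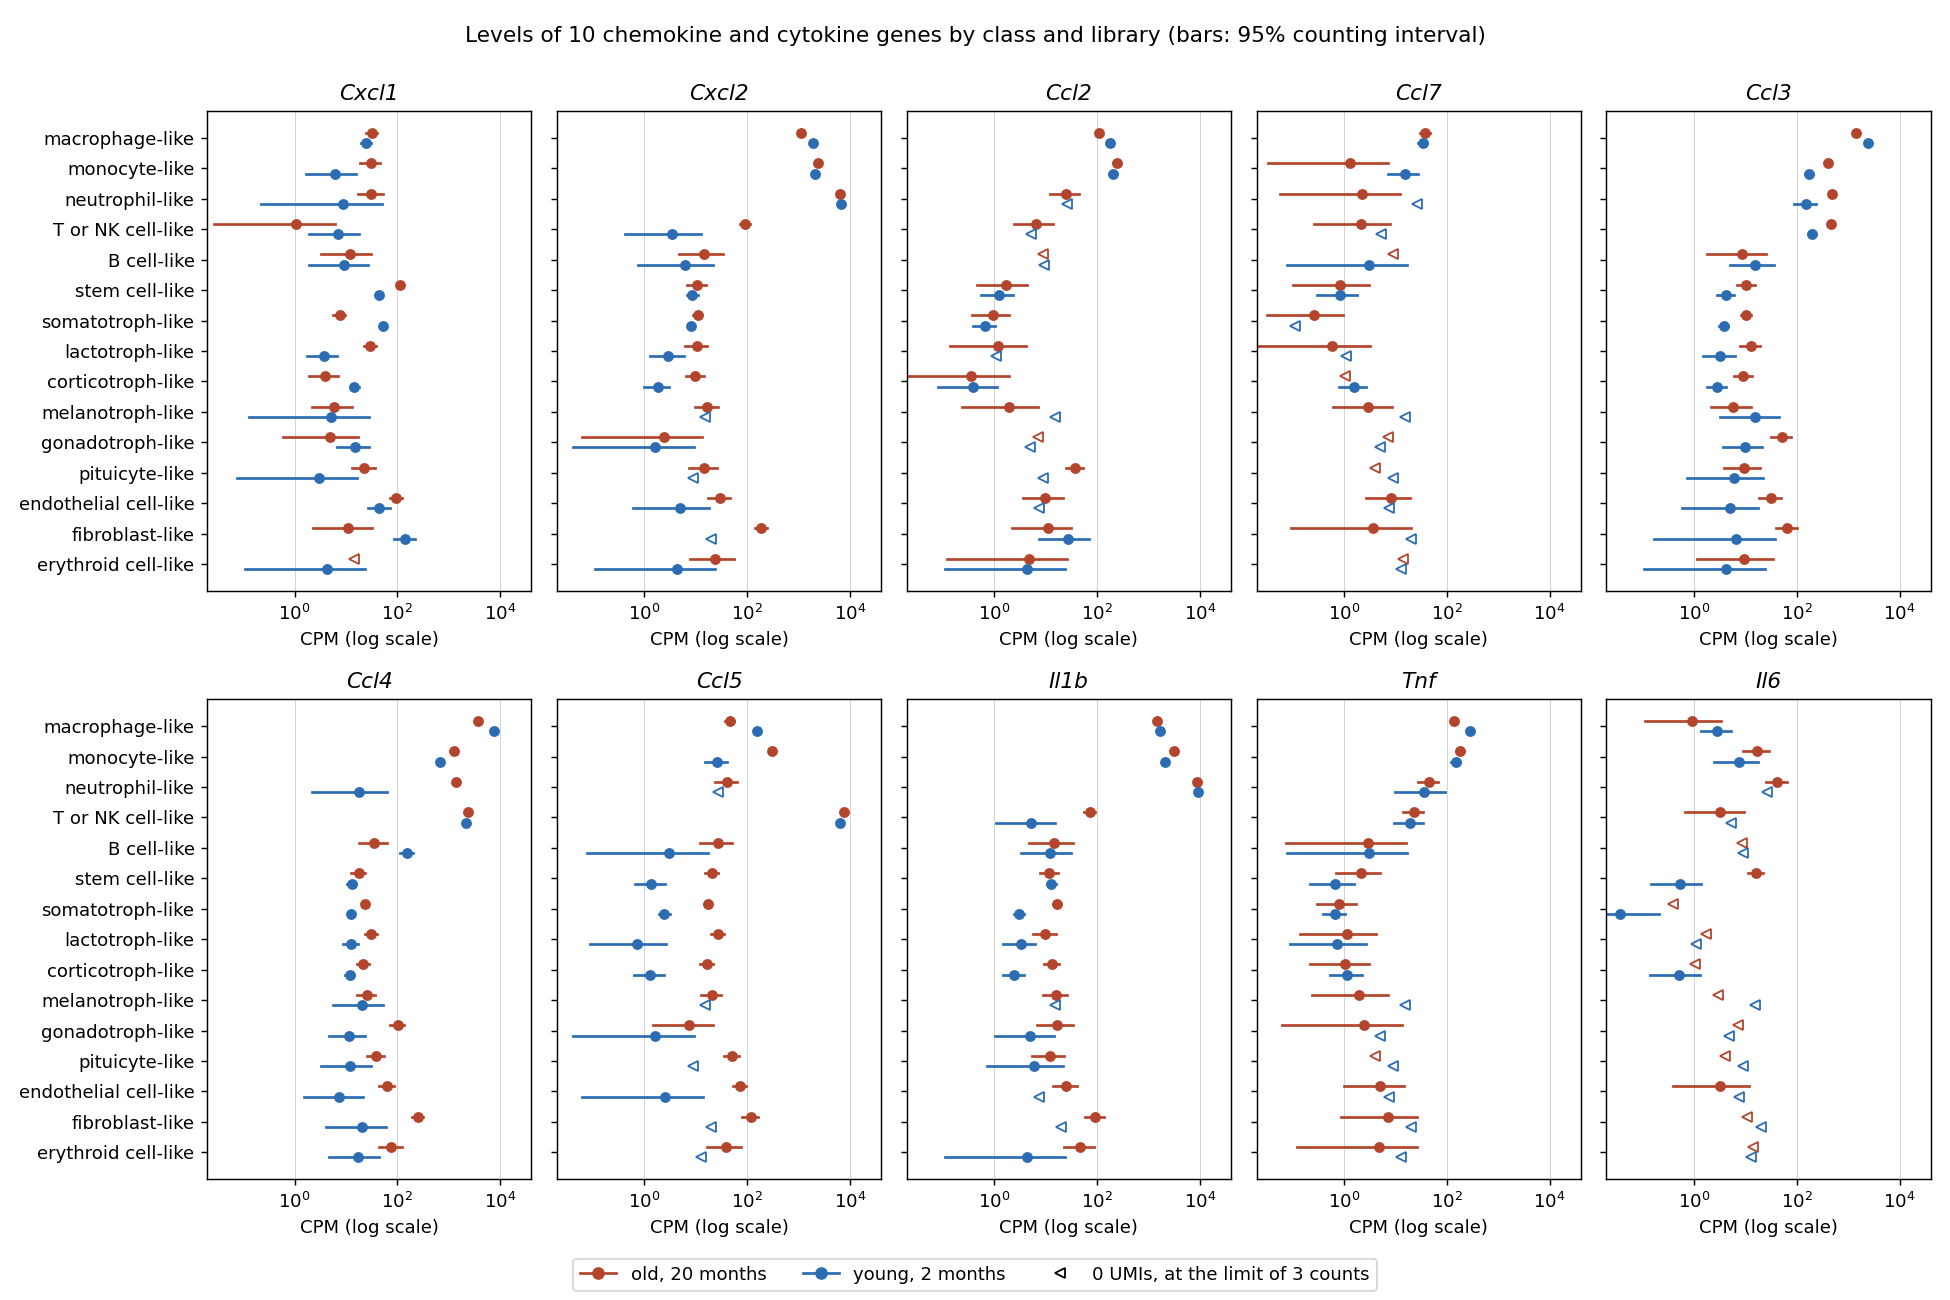
Level of each of the 10 genes (CPM, log scale) by class of cells, with the old library above the young one and 95% counting intervals as bars. Open triangles mark classes with 0 UMIs, drawn at the level of 3 counts. Cxcl2, Ccl3, Ccl4 and Il1b are highest in immune classes at both ages, and Cxcl1 stands at 114 CPM in old and 44.1 CPM in young stem cell-like cells.

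Macrophage-like cells, the largest immune class, held less of several members in the old library. Ccl4 stood at 3758 CPM in the old and 7452 CPM in the young library (412 and 747 cells), a ratio of 0.504 (0.492 to 0.517) that fell just short of the 2-fold limit and was not called. Without the richest cell of each library the ratio was 0.497, and Ccl4 was called lower. Ccl3, a macrophage attractant like Ccl4, stood at 1446 and 2489 CPM (0.581, 0.558 to 0.605). Called lower were Tnf, at 141 CPM in the old and 283 CPM in the young library (2.01-fold lower, 1.77 to 2.30), and Ccl5, at 46.4 and 152 CPM (3.28-fold lower, 2.64 to 4.10). These are 2 of 9 members tested, with 0 called higher, in a class where 0.965% of 10984 genes were called lower and 6.51% higher. The median log2 ratio was -0.74 over the members and 0.24 over all genes tested. Il1b was nearer to equal, at 1464.5 and 1659 CPM (0.883, 0.845 to 0.922). Cxcl2 (0.599, 0.572 to 0.628) and Ccl2 (0.625, 0.537 to 0.727) had ratios below 1 that did not reach 2-fold. Tnf, like Ccl4, lay at the limit: over 15 alternative settings its ratio ran from 0.480 to 0.553, and that of Ccl4 from 0.462 to 0.531. Under 9 of the alternatives 1 member was called lower, and with a 1.5-fold limit 6 were. The intervals of Cxcl1 (1.31, 0.944 to 1.83) and Ccl7 (1.12, 0.831 to 1.49) spanned 1, and Il6 had 2 old and 10 young UMIs.

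Shares of macrophage-like cells lay in the same direction for Ccl4, Ccl3, Cxcl2 and Tnf. After thinning Ccl4 was found in 64.6% (59.7 to 69.2) of old and 75.4% (72.1 to 78.4) of young cells. Before thinning the shares were 69.7% and 79.3%, and the median cell held 6 old against 20 young UMIs of it. Thinned shares were 51.7% of old and 63.7% of young cells for Ccl3, 17.5% and 27.2% for Cxcl2 and 15.3% and 25.6% for Tnf. As a background, Ccl4 was found in 4.47% of old and 1.71% of young cells in the somatotroph-like class. Ccl5 was found in 9.47% of old and 10.2% of young cells, with overlapping intervals, and its UMIs were less concentrated in the old class. The tenth of cells richest in Ccl5 held 64% of its UMIs in the old and 95.3% in the young class, and the richest cell held 6 old against 40 young UMIs. Barcodes of at most 100 UMIs held Ccl5 at 488 CPM in the old and 55.4 CPM in the young library, and those of 500 to 900 UMIs at 361 and 21.1 CPM. The part of free RNA in the Ccl5 values of macrophage-like cells was not tested. Ccl3 and Ccl4 went together from cell to cell, with a Spearman correlation of 0.62 over 412 old and 0.73 over 747 young cells, and Cxcl2 and Il1b did so at 0.47 and 0.40. These are descriptions over cells of 1 library each.

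The macrophage-like class held 3 clusters, whose ratios differed. The largest was led by C1q genes and Ms4a7 (215 old and 450 young cells), and Ccl4 stood there at 4483.5 and 8013 CPM in the old and young library (ratio 0.560, 0.542 to 0.577). A second was led by C1q genes, Trem2, Cx3cr1 and Siglech (111 and 196 cells), several of which are known from microglia. In it Ccl4 was at 3507 and 7741 CPM in the old and young library (0.453, 0.434 to 0.473) and Tnf at 142 and 419 CPM (2.96-fold lower, 2.40 to 3.67). Cxcl2 set these clusters apart: in the second it was at 70.2 and 865 CPM (12.3-fold lower, 9.39 to 16.5), and in the largest at 2026 and 2565 CPM (1.27-fold lower, 1.21 to 1.33), old before young. The third cluster, of 86 old and 101 young cells, had the fewest UMIs per cell, with a median 0.539 times that of its library. There Ccl4 was at 873 and 249.8 CPM in the old and young library (3.50, 2.57 to 4.82) and Il1b at 294 and 74.0 CPM (3.97, 2.27 to 7.36). Barcodes of at most 100 UMIs held Ccl4 at 522 and 359 CPM and Il1b at 336 and 115 CPM, old before young. In barcodes of 500 to 900 UMIs Ccl4 was at 397 and 112 CPM and Il1b at 248 and 22.2 CPM. The part of free RNA in the values of this cluster was not tested. Without it the ratio of the class was 0.516 for Ccl4 and 0.223 for Ccl5.

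**Figure D2:**
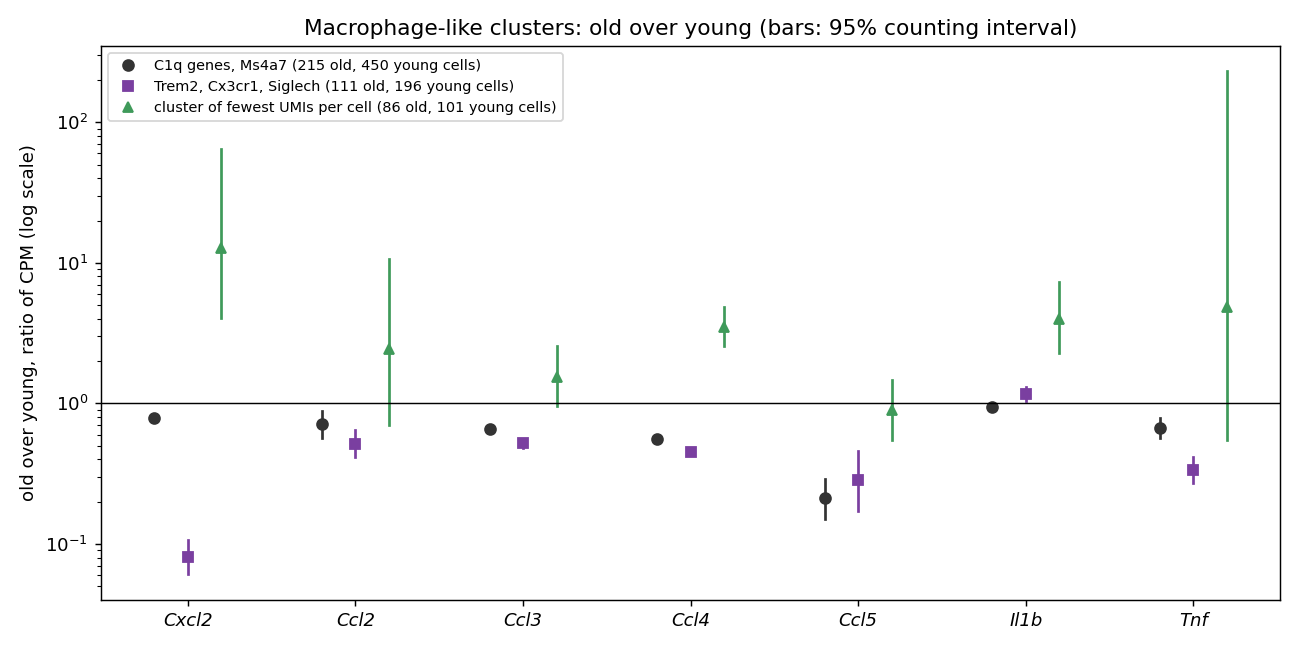
Ratio of old over young CPM (log scale) of 7 members in the 3 macrophage-like clusters, named by their leading genes or by their UMIs per cell. Bars are 95% counting intervals, shorter than the symbol where none is seen, and the line marks a ratio of 1. Cxcl2 has a ratio of old over young of 0.790 in the largest cluster and 0.0811 in the second, and Ccl4 one of 3.50 in the cluster of fewest UMIs per cell.

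In monocyte-like cells the 8 members tested had ratios above 1 as summed. Il1b stood at 3123.5 CPM in the old and 2127 CPM in the young library (82 and 97 cells), a ratio of 1.47 (1.37 to 1.57), and was found in 79.3% of old and 57.7% of young cells after thinning. Cxcl2 was at 2386 and 2098 CPM (1.14, 1.06 to 1.22) and Ccl2 at 241 and 206 CPM (1.17, 0.929 to 1.47). Ccl3 was called higher, at 414 against 176 CPM (2.35, 1.90 to 2.94), and Ccl4, at 1241.5 and 677 CPM, had a ratio of 1.84 (1.64 to 2.06). Of 8 members tested 3 were called higher and 0 lower, where 4.05% of 6549 genes were called higher and 1.34% lower. The other 2 calls rested largely on 1 cell each, with 180 of the 233 old UMIs of Ccl5 and 21 of the 23 of Cxcl1. Without the richest cell of each library Ccl5 was still called higher, at 6.60-fold, Ccl4 was called too, at 2.06-fold, and Cxcl1 was not called. Over the alternative settings the ratio of Cxcl1 turned below 1 in 3 of 10, that of Cxcl2 in 4 of 11 and that of Ccl2 in 1 of 11.

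Neutrophil-like cells had the highest levels of Il1b and of Cxcl2 of the classes, close between the ages as summed. Il1b stood at 8851 CPM in the old and 9249 CPM in the young library (66 and 25 cells), a ratio of 0.957 (0.894 to 1.03), and Cxcl2 at 6499.9 and 6779.7 CPM (0.959, 0.885 to 1.04). After thinning Il1b was found in 98.5% of old and 88% of young cells and Cxcl2 in 90.9% and 76%. The ratio of Il1b was 1.66 with a coarser clustering and 1.71 with doublets kept. In these settings no class was named monocyte-like. The neutrophil-like class held 148 old and 121 young cells in the first and 151 and 139 in the second. These ratios thus cover more cells than the class as reported. Ccl4 had 608 UMIs in 22 of the 66 old cells and 2 UMIs in the young ones, a ratio of 76.3 (21.0 to 632). Of the old UMIs 370 lay in 3 cells. Ccl3 was called higher as well, at 478 against 150.5 CPM (3.18, 1.94 to 5.55). These 2 of 5 members tested stand beside 7.12% of 4351 genes called higher and 3.22% called lower, with 0 members lower. Cd74, an antigen presentation gene and marker of other immune cells, was also called higher in this class, at 1502 against 62.0 CPM, and Lyz2 lower, at 944 against 4593.5 CPM, and the part of other cells in these values was not tested.

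T or NK cell-like cells were the main site of Ccl5. It stood at 7591 CPM in the old and 6342 CPM in the young library (169 and 147 cells), a ratio of 1.20 (1.15 to 1.25), and was found in 85.2% of old and 66.7% of young cells after thinning. The make-up of the class differed between the libraries. A T cell-like sub-cluster led by Gzmk and Cd40lg held 94 old and 25 young cells, and Ccl5 there was at 9331 and 9129.9 CPM (1.02, 0.95 to 1.10). In an NK cell-like sub-cluster led by Gzmc (33 and 42 cells) it was at 5734.5 and 6229.9 CPM (0.920, 0.845 to 1.00), and in one led by Gzma and Klra4 (16 and 36 cells) at 12447 and 13491 CPM (0.923, 0.849 to 1.00). The intervals of these 3 ratios spanned 1. A second T cell-like sub-cluster, with Ccr7 and Lef1 among its leading genes, held 9 old and 38 young cells, with Ccl5 at 711 and 173 CPM (4.10, 2.45 to 7.01). Ccl4 was at 2333 and 2186 CPM in the old and young class (1.07, 0.995 to 1.15).

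Ccl3, Cxcl2 and Il1b were called higher in T or NK cell-like cells, which makes 3 of 6 members tested, where 6.85% of 7079 genes were called higher and 1.09% lower. Ccl3 was at 462 against 202 CPM (2.29, 1.86 to 2.84), Cxcl2 had 83 old and 2 young UMIs, and Il1b 66 and 3. A sub-cluster of 10 old cells and 1 young cell led by Cxcl2, Apoe and C1q genes, the last of these macrophage markers, held many of them. Without it Cxcl2 had 10 old and 2 young UMIs and Il1b 26 and 3. Ccl3 then had a ratio of 1.62 (1.30 to 2.03) and was not called, and Ccl5 one of 1.29 (1.24 to 1.35). In the Gzmc-led NK cells Ccl3 was at 792 and 282 CPM (2.81, 2.03 to 3.96), old before young.

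In endocrine cells the members other than Cxcl1 stood far below their free RNA level. Over the somatotroph-, lactotroph-, corticotroph-, melanotroph- and gonadotroph-like classes together, the other 9 members had a median of 4.64% of their level in old barcodes of at most 100 UMIs, with a range of 0% to 11%. In the young library the median was 3.60% over 6 members with enough UMIs, with a range of 2.37% to 7.41%. Cxcl1 stood at 38.3% of its free RNA level in old and 113% in young endocrine cells. Without the somatotroph-like class it stood at 47.7% in old and 32.8% in young endocrine cells, at 11.7 and 11.8 CPM. Against barcodes of 500 to 900 UMIs the same members other than Cxcl1 stood at 0% to 12.6% in old and 9.81% to 27.9% in young endocrine cells. The free RNA itself differed between the libraries: Ccl5 was at 488 and 55.4 CPM in old and young barcodes of at most 100 UMIs, Il1b at 336 and 115 CPM, Cxcl2 at 195 and 85.8 CPM and Cxcl1 at 24.5 and 36.0 CPM. In old and young barcodes of 500 to 900 UMIs, Ccl5 was at 361 and 21.1 CPM and Il1b at 248 and 22.2 CPM. Cxcl2 was there at 151 and 22.8 CPM and Cxcl1 at 20.1 and 35.1 CPM, so the contrast depends on the band.

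The calls in endocrine cells lie beside that background. In somatotroph-like cells, the growth hormone cells, Ccl5 was at 17.0 against 2.45 CPM (6.93, 5.11 to 9.47), Il1b at 16.4 against 3.01 CPM (5.47, 4.10 to 7.33) and Ccl3 at 10.3 against 3.86 CPM (2.68, 1.97 to 3.63), old against young. These 3 of 8 members tested stand beside 4.75% of 14725 genes called higher. In the same cells 9 of 10 immune cell markers were called higher, and none was at 0. Their summed level was 232 CPM in the old and 69.6 CPM in the young class. It was 5113 and 1791 CPM in barcodes of at most 100 UMIs and 3637 and 456 CPM in those of 500 to 900 UMIs. In corticotroph-like cells, which make adrenocorticotropic hormone, Cxcl2, Ccl3, Ccl5 and Il1b were called higher, 4 of 6 tested, where 3.62% of 12938 genes were. The marker sums there were 215 and 50.4 CPM. A subtraction of free RNA from somatotroph-like cells took 13.6% of old and 10.3% of young UMIs and left 0 UMIs of each member other than Cxcl1, and 1 young UMI of Il6. No call on those members could then be made, and the share subtracted was larger than the percent at which they stood. Among old somatotroph-like cells, 38 held Ccl5 and 38 held Il1b after thinning, and 0 held both. Il1b was found in 3.45% of the cells without Ccl5, so an overlap of 0 among 38 cells carries little information.

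**Figure D3:**
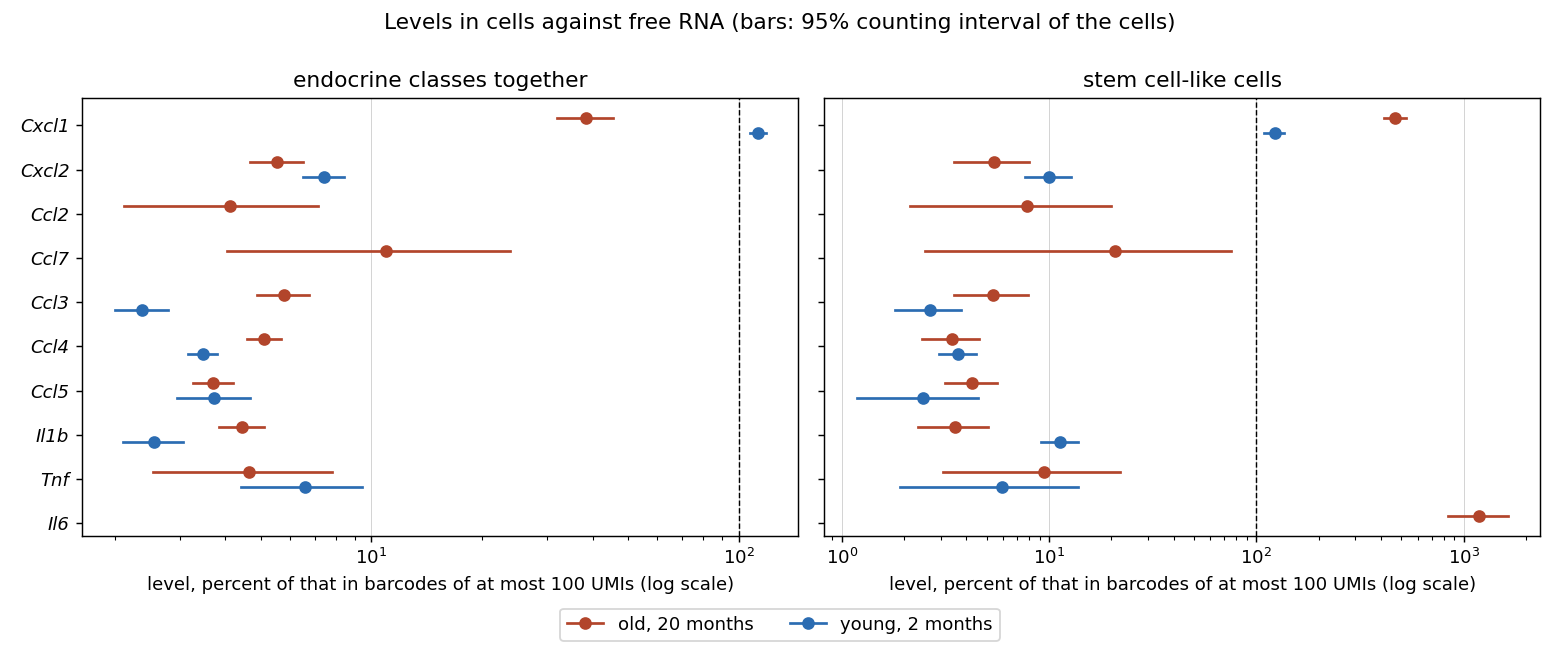
Level of each member in endocrine and in stem cell-like cells as a percent of its level in its own library's barcodes of at most 100 UMIs (log scale), old library above the young one. Bars are 95% counting intervals of the cells, the dashed line marks 100%, and no point is drawn for a gene with under 20 UMIs in those barcodes or with 0 in the cells. Cxcl1 stands at 38.3% in old and 113% in young endocrine cells and at 466% and 122% in stem cell-like cells, and the other members of endocrine cells that are drawn lie at or below 11%.

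Cxcl1 was called lower in old somatotroph-like cells, with 57 UMIs in 1140 old and 1419 UMIs in 3981 young cells. Its level was 7.55 CPM in the old and 52.7 CPM in the young library (6.97-fold lower, 5.35 to 9.25), and it was the 1 member called lower in this class, where 2.69% of genes were. After thinning 1.14% (0.609 to 1.94) of old and 3.34% (2.80 to 3.95) of young cells held it. The class spread over 4 clusters. Cluster 7, of the most UMIs per cell (66 old and 978 young cells), had 7.16 and 80.0 CPM (11.2-fold lower, 4.34 to 41.1), cluster 5 had 5.45 and 31.7 CPM (5.81-fold lower, 3.95 to 8.88) and cluster 3 had 15.6 and 48.6 CPM (3.12-fold lower, 2.03 to 5.00), old before young. In cluster 4, with 2 old and 7 young UMIs, the interval spanned 1. With each cluster weighted by its young UMIs the ratio was 0.154, against 0.143 as summed, and with free RNA subtracted it was 0.0921.

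Corticotroph-like cells went the same way for Cxcl1, at 3.87 and 14.6 CPM in the old and young library (11 and 113 UMIs, 3.78-fold lower, 2.03 to 7.79), where 2.03% of genes were called lower. Their largest cluster, cluster 8, had 1.77 and 14.8 CPM (8.35-fold lower, 3.16 to 31.2), and in clusters 9 and 24 the intervals spanned 1. Lactotroph-like cells, the prolactin cells, went the other way, with 51 UMIs in 267 old and 10 UMIs in 403 young cells (8.10, 4.07 to 17.9), where 6.1% of 11461 genes were called higher and 2.01% lower. In all, 6 of 6 members tested were called higher in lactotroph-like cells, where immune markers summed to 249 and 75.5 CPM, and their part was not tested. Of the old UMIs of Cxcl1 20 lay in 1 cell, and without the richest cell of each library the ratio was 8.23.

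Stem cell-like cells, the reserve cells of the gland, held more Cxcl1 in the old library, with 270 UMIs in 277 old and 323 in 976 young cells, or 114 against 44.1 CPM (2.58, 2.19 to 3.05). After thinning 6.86% (4.18 to 10.5) of old and 2.97% (2.00 to 4.24) of young cells held it. Before thinning the shares were 10.1% and 7.68%, with overlapping intervals, and 12 old and 9 young cells held 10 or more UMIs. The level was 466% of that in free RNA in the old and 122% in the young library, and without the richest cell of each library the ratio was 2.70. Of 7 members tested in this class 4 were called higher and 0 lower, where 3.53% of 12903 genes were called higher and 1.29% lower. The others called were Il6, Ccl5, at 20.7 against 1.36 CPM, and Ccl3, at 10.6 against 4.23 CPM. Ccl5 and Ccl3 stood at 4.24% and 5.38% of their old free RNA levels, where the share of the growth hormone transcript Gh stood at 16.7% of its own. Immune marker sums were 536 and 359 CPM, none at 0, and the part of free RNA in these values was not tested. Il1b was at 11.8 and 13 CPM (0.911, 0.575 to 1.40). Without the richest cell of each library 7 of 7 members tested were called higher. Il1b then had 18 of its 95 young UMIs left and a ratio of 4.47, and Cxcl2 had 21 of 63 left and a ratio of 3.28. With free RNA of at most 100 UMIs subtracted, Cxcl1 and Il6 were called higher. Cxcl2 and Il1b were called lower, with 0 old UMIs left against 24 and 43 young ones, the richest cells being counted here.

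**Figure D4:**
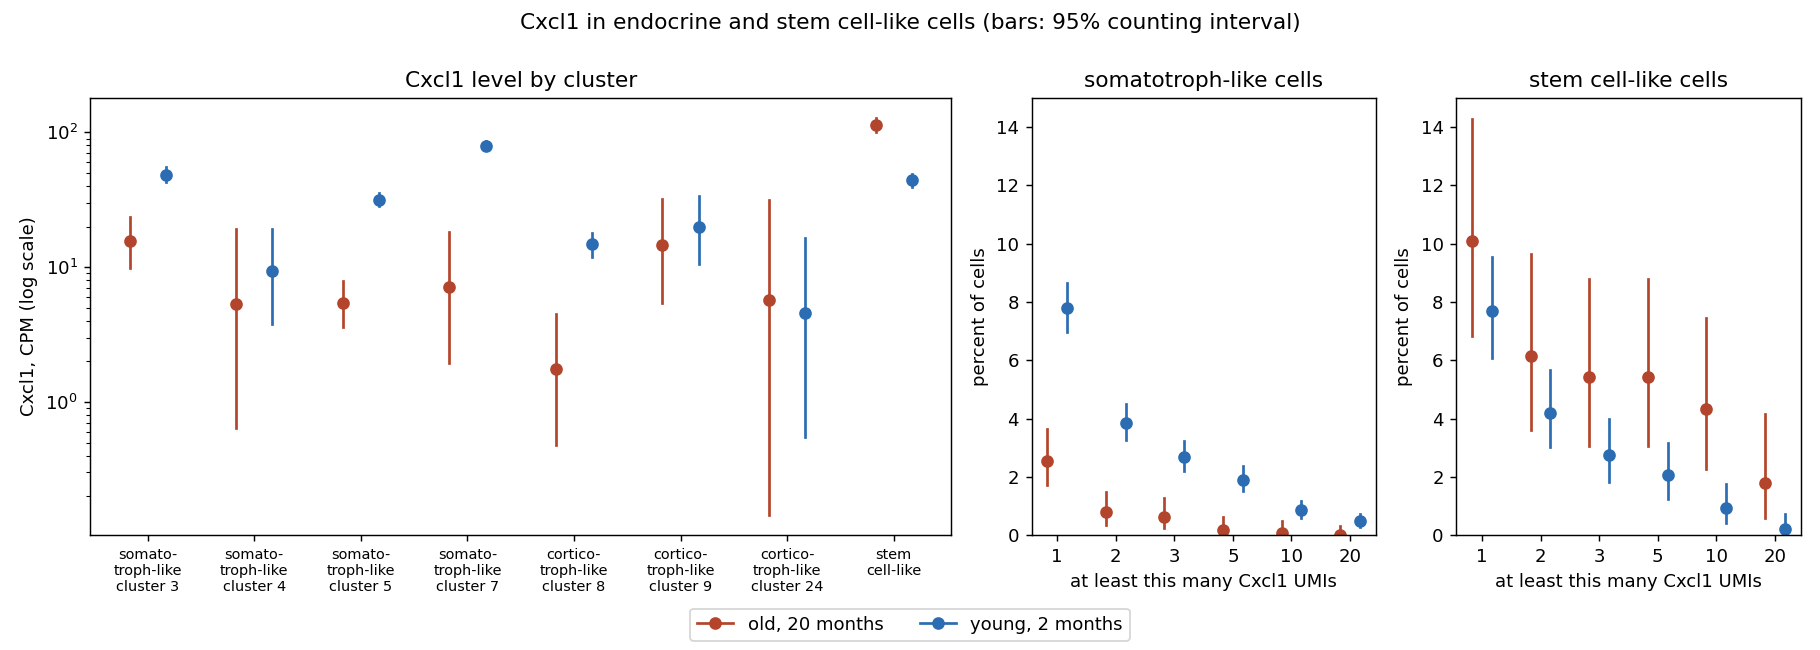
Left, Cxcl1 level (CPM, log scale) in the somatotroph- and corticotroph-like clusters and in stem cell-like cells, old library left of the young one, with 95% counting intervals as bars. Right, the percent of somatotroph-like and of stem cell-like cells with at least 1, 2, 3, 5, 10 or 20 UMIs of it, without thinning. At least 3 UMIs were found in 0.614% of old and 2.69% of young somatotroph-like cells and in 5.42% of old and 2.77% of young stem cell-like cells.

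Cells with at least 3 Cxcl1 UMIs numbered 7 old and 107 young in the somatotroph-like class and 15 old and 27 young in the stem cell-like class. The 10 immune markers summed to 495 CPM in the old stem cell-like cells with Cxcl1 and 552 CPM in those with none, and to 84.1 and 68.5 CPM in young somatotroph-like cells with and without it. Nfkbia, an inhibitor of NF-kB that NF-kB itself induces, stood at 961 CPM in old stem cell-like cells with Cxcl1 and 279 CPM in those without. The same pair was 794 and 287 CPM in young stem cell-like cells, 1347 and 490.1 CPM in old somatotroph-like cells and 1002 and 525 CPM in young ones. Nfkbia was thus higher beside Cxcl1 in all 4 of these groups. The immediate early gene Fos was at 10053 against 3501.5 CPM in the old and 9265 against 3941 CPM in the young stem cell-like cells, with Cxcl1 against without. In somatotroph-like cells it was at 11170 against 8923.5 CPM in the old and 8995 against 7466 CPM in the young library, a smaller difference. Cxcl2 was at 61.7 CPM in young somatotroph-like cells with Cxcl1 and 5.74 CPM in those without. The same pair was 13.1 and 11.1 CPM in old somatotroph-like, 14 and 10.2 CPM in old stem cell-like and 0 and 9.68 CPM in young stem cell-like cells. After thinning, 133 young somatotroph-like cells held Cxcl1, 23 held Cxcl2 and 2 held both. Without the cell richest in Cxcl2, 159 of its 220 UMIs were left in the young somatotroph-like class. How far the 61.7 CPM rested on single cells was not tested. Old stem cell-like cells with Cxcl1 had a median of 14684 UMIs and those without 7640, and the part of depth in these values was not tested. Over all stem cell-like cells 0 of 23 NF-kB factors, inhibitors and feedback genes were called higher and 0 lower.

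Il6, which acts through Il6ra and Il6st, was rare. It had 38 UMIs in 6 of 277 old and 4 UMIs in 976 young stem cell-like cells (29.4, 10.6 to 113), and 33 of the old UMIs lay in 3 cells. In neutrophil-like cells it had 19 UMIs in 2 old cells and 0 in the young ones. With the young value set to a floor of 3 counts the ratio was 1.59, and the lower counting limit was 1.17. Several values of small classes rested on 1 cell. In fibroblast-like cells 21 of 21 young UMIs of Cxcl1 and 51 of 52 old UMIs of Cxcl2 were in 1 cell. The same held for 26 of 28 old UMIs of Ccl2 in pituicyte-like cells, 38 of 42 old UMIs of Ccl4 in gonadotroph-like cells and 32 of 50 young UMIs of Ccl4 in B cell-like cells. Without the richest cell of each library none of these 5 pairs of gene and class was called.

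The remaining classes had few UMIs of most members, so few could be tested. In endothelial cell-like cells 5 of 5 members tested were called higher, where 5.62% of 7066 genes were called higher and 4.12% lower. Cxcl1 stood there at 95.1 CPM in the old and 44.6 CPM in the young library (2.14, 1.24 to 3.85), and its ratio turned below 1 under 6 alternative settings. Among them were doublets kept and a coarser clustering, where no class was named fibroblast-like. In fibroblast-like cells 4 of 5 were called higher and 1 lower, where 5.34% of 3934 genes were called higher and 4.91% lower. In pituicyte-like cells 3 of 3 were called higher, where 6.05% of 7655 genes were called higher and 2.46% lower. Gonadotroph-like cells had 2 of 2 called higher, where 3.67% of 7202 genes were called higher and 3.1% lower, and melanotroph-like cells 0 of 2, where 2.19% of 8528 genes were called higher and 2.1% lower. In B cell-like cells the 1 member tested, Ccl4, was called lower, where 7.65% of 4393 genes were called higher and 1.34% lower. In erythroid cell-like cells the 1 member tested, Ccl4 again, was called higher, where 0.839% of 1669 genes were called higher and 30.1% lower. Without the richest cell of each library, Ccl4 alone stayed called in endothelial cell- and pituicyte-like cells and Ccl5 alone in fibroblast-like cells. No member stayed called in gonadotroph-, B cell- or erythroid cell-like cells. Members left with under 20 UMIs could then not be called. The 10 immune markers summed to 1626 and 1156 CPM in old and young endothelial cell-like cells and to 603 and 55.8 CPM in gonadotroph-like cells. In pituicyte-like cells the sums were 325 and 36.0 CPM and in fibroblast-like cells 835 and 1338 CPM, old before young. The part of immune cells or free RNA in these calls was not tested.

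Receptors lay in part in the same classes as the ligands. Cxcr2 was at 451 and 682 CPM in old and young neutrophil-like cells and Ccr2 at 317 and 259 CPM in monocyte-like cells. Endocrine cells held receptors of the cytokines, with Il1r1 at 52.4 and 61.9 CPM in old and young somatotroph-like cells and Il6ra at 141 and 174 CPM in corticotroph-like cells. Of 12 receptors tested in macrophage-like cells 0 were called higher and 0 lower.

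Of 15 other chemokines in macrophage-like cells 4 were called higher, with Cxcl13, Ccl8 and Cx3cl1 first by size of ratio, and 3 lower (Cxcl10, Ccl17 and Cxcl9), in a class where 6.51% of all genes tested were called higher and 0.965% lower. Cxcl13, a B cell attractant, had 31 old UMIs and 1 young UMI. Ccl8 was at 40.9 against 7.37 CPM (5.55, 3.55 to 8.95), old against young. Cxcl10, an interferon-induced T cell attractant, was at 342 against 1147 CPM (3.36-fold lower, 3.1 to 3.63) and its relative Cxcl9 at 38.1 against 82.2 CPM (2.16-fold lower, 1.68 to 2.79). Of 14 other cytokines there Tnfsf10 was called higher, and Il12b and Il10, with 2 and 4 old against 23 and 21 young UMIs, were called lower. Of 18 genes of the maturation and secretion of interleukin 1 beta and Tnf 1 was called higher and 0 lower. It was Timp3, an inhibitor of the protease that releases Tnf, at 42.7 against 3.97 CPM (10.8, 6.10 to 20.5), old against young. None of 25 NF-kB genes or 20 immediate early genes was called there. In monocyte-like cells Ccl17 and Ccl22, which attract T cells through Ccr4, were called lower, Ccl17 at 6.58 against 247 CPM (37.6-fold lower, 15.8 to 117) and Ccl22 at 6.58 against 81.9 CPM. The cluster of this class scored 5.68 on the monocyte and 3.61 on the dendritic cell markers, and the part of dendritic cells in these values was not tested. Il1rn, the antagonist of interleukin 1, was called higher there, at 43.4 against 12.1 CPM (3.58, 1.62 to 8.96). In corticotroph-like cells 5 of 21 immediate early genes were called lower and 0 higher, where 2.03% of all genes tested were called lower and 3.62% higher.

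The members could be ordered by how alike their levels ran over classes. Over 32 points, each a group of cells in 1 library, the log2 levels of Cxcl2 and Il1b had a Pearson correlation of 0.98, and those of Ccl3 and Ccl4 one of 0.93. Cxcl1 ran with none of them, from -0.11 with Ccl5 to 0.33 with Il6. The gene most like Cxcl2 (0.95) and Il1b (0.97) was Ccl6. The gene most like Ccl4 was Rgs1 (0.94), that most like Ccl5 was Il7r (0.89) and that most like Cxcl1 was Nid2 (0.73). These are descriptions, since the points share libraries, depth and free RNA.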

How the data were processed

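The deposited matrices give, for every barcode, the raw count of UMIs of each gene, without cell calling or normalisation. The submitters' processing notes name Cell Ranger 6.0.2 and the build GRCm39, whereas per the file headers it was version 4. Barcodes were kept with at least 2000 UMIs, 500 genes and at most 15% mitochondrial UMIs. The automatic doublet threshold of scrublet marked 3 old and 0 young barcodes, so the top-scoring 766 and 679 were removed at the expected rate of 0.8% per 1000 barcodes. Both libraries were clustered together without integration (scanpy 1.11.5, Leiden at resolution 1, 3000 variable genes without the members and lists, 40 components, 15 neighbours). Clusters were named from fixed markers and are called "like", so that a difference between classes may come from these rebuilt names. A cluster was set aside as free RNA where its correlation with the summed profile of near-empty barcodes, of 10 to 100 UMIs, reached 0.95.

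CPM come from the sum of UMIs over the cells of a class in a library, with exact conditional Poisson intervals for ratios and exact Clopper-Pearson intervals for shares of cells (scipy 1.17.1). PCR duplicates are removed by the UMIs, and intervals and the floor of 3 counts cover counting error only. The ratio, its interval and the call were tested on simulated sums of the macrophage- and somatotroph-like classes, with known folds and counting error alone. The other steps were not simulated. Named beside the members are genes of 7 lists (other chemokines, other cytokines, receptors, NF-kB genes, maturation of interleukin 1 beta and Tnf, immediate early genes, immune cell markers), at most 3 called genes per direction, list and class, and the genes most like a member (log2 of CPM with 5 added, at least 200 UMIs). Other genes are named as receptors of the ligands, as leading genes of clusters, or, like Nfkbia, Fos, Cd74 and Lyz2, after their values were seen. The members and lists were chosen with earlier results of these data known. Alternatives were other minima of UMIs, mitochondrial limits, doublet handling, clustering, scaling, subtraction of free RNA, call thresholds and leaving out the richest cell.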

Additional observations from a re-analysis of the deposited data

Results flagged for a closer look

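Cxcl1 was called in opposite directions in different classes. Its ratio of old over young was 0.143 in somatotroph-like and 0.265 in corticotroph-like cells, and 8.10 in lactotroph-like and 2.58 in stem cell-like cells. Ccl5 was called lower in macrophage-like cells, with a ratio of 0.305, and higher in 8 other classes, with ratios of 11.9 in monocyte-like, 6.93 in somatotroph-like, 12.8 in corticotroph-like, 15.2 in stem cell-like, 29.2 in endothelial cell-like and 36.6 in lactotroph-like cells. In the remaining classes, the pituicyte- and fibroblast-like ones, it had 37 and 32 old and 0 young UMIs. With the young value set to a floor of 3 counts the ratios were 5.52 and 5.76. The lower counting limits were 4.27 and 4.42. Without the richest cell of each library Ccl5 was not called in endothelial cell-like (10 old and 0 young UMIs) or pituicyte-like cells (12 and 0). Under 20 UMIs were then left, too few for a call. The other Ccl5 calls named here stayed, in fibroblast-like cells with 22 old and 0 young UMIs. The Ccl5 levels of the endocrine and stem cell-like classes stood at a few percent of that in barcodes of at most 100 UMIs. With 1 library per age the differences between classes were not tested.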

How the results depend on the processing

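Ratios are old over young, and all alternatives change 1 choice at a time. Over 100 results and 20 alternative settings, 800 of 959 alternative values stayed within the counting interval of the reported one or, for a count of calls, within 1.5 times it, 149 moved further and 10, counted among called ratios only, turned to the other side of 1. Ratios that were not called crossed 1 as well, among them Il1b in stem cell-like cells, at 0.584 to 5.91 over the alternatives, Ccl4 in corticotroph-like cells, at 0.881 to 2.87, and Cxcl2 in monocyte-like cells, at 0.897 to 1.15. The cause of these moves was not tested. Reported ratios are 0.143 for Cxcl1 in somatotroph-like and 2.58 in stem cell-like cells, 0.504 for Ccl4 and 0.305 for Ccl5 in macrophage-like cells, 1.20 for Ccl5 in T or NK cell-like cells and 0.957 for Il1b in neutrophil-like cells.

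Cxcl1 in somatotroph-like cells had 0.210 with a minimum of 1000 UMIs, 0.201 with doublets kept, 0.0921 with free RNA of at most 100 UMIs subtracted and 0.209 as a mean over cells. In stem cell-like cells it had 3.70 at 1000 UMIs, 3.27 at a mitochondrial limit of 25% and 2.13 as a mean over cells. Ccl4 in macrophage-like cells had 0.492 at 1000 and 0.530 at 3000 UMIs, 0.527 with doublets kept, 0.521 and 0.530 with free RNA of at most 100 and of 500 to 900 UMIs subtracted, 0.462 as a mean over cells and 0.531 when each cluster was weighted by its young UMIs. Ccl5 there had 0.389 at 1000 UMIs, 0.460 as a mean over cells and 0.223 without the cluster of fewest UMIs. Ccl5 in T or NK cell-like cells had 1.13 at 1000 and 1.35 at 3000 UMIs, 1.06 as a mean over cells and 1.29 without the sub-cluster led by C1q genes, where 1 member was called higher against 3 as reported. Il1b in neutrophil-like cells lay on either side of 1, with 0.890 at 1000 UMIs, 1.71 with doublets kept, 1.66 at a resolution of 0.5, 0.886 in CPM over all UMIs, 1.31 and 1.40 with free RNA of at most 100 and of 500 to 900 UMIs subtracted and 0.787 as a mean over cells. With doublets kept and at a resolution of 0.5 no class was named monocyte-like. The neutrophil-like class then held 151 and 148 old and 139 and 121 young cells.

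Of the counts of members called, the 2 lower in macrophage-like cells were 1 at 3000 UMIs, at mitochondrial limits of 10% and 25%, with doublets kept, at a resolution of 2, with members among the clustering genes, with either free RNA profile subtracted and without the cluster of fewest UMIs. They were 6 at a 1.5-fold threshold. In stem cell-like cells, with 4 higher and 0 lower as reported, 7 were higher at 1000 UMIs and 7 without the richest cell. With free RNA of at most 100 UMIs subtracted, 2 were higher and 2 lower, and with that of 500 to 900 UMIs 2 were higher and 3 lower. In somatotroph-like cells, with 3 higher and 1 lower as reported, 0 and 0 were higher under these subtractions, and 6 were lower under the second. These counts follow from the construction, since 0 old UMIs were left of each member other than Cxcl1, which also holds for the members called lower in stem cell-like cells.

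The called ratios that turned were 3. Cxcl1 in endothelial cell-like cells had 0.179 at 1000 UMIs, 0.206 at a mitochondrial limit of 25%, 0.755 with doublets kept, 0.977 at a resolution of 0.5, 0.228 with members among the clustering genes and 0.884 as a mean over cells, against 2.14 as reported. With doublets kept and at a resolution of 0.5 no class was named fibroblast-like. The endothelial cell-like class then held 120 and 115 old and 144 and 116 young cells, against 77 and 85 as reported. Cxcl1 in monocyte-like cells, 4.99 as reported, had 0.139 at 3000 UMIs, 0.270 at a mitochondrial limit of 10% and 0.429 with members among the clustering genes. Ccl4 in pituicyte-like cells had 0.417 with doublets kept, against 3.25. The weighting by clusters and the removal of the macrophage cluster and of the T or NK sub-cluster were chosen after seeing the data. No value could be had for Il1b in neutrophil-like cells at 3000 UMIs, with under 20 young cells, and no ratio for Ccl5 in macrophage-like cells after subtraction, with 0 old UMIs left against 518 or 530 young ones.

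No paired analysis was possible because each age has 1 library, and the same number in both labels names no shared animal. The limits are these: 1 pooled library per age, intervals that cover counting error alone, and 3157 against 6317 median UMIs per kept barcode. Free RNA also differed between the libraries, in make-up and in the sizes of barcode that held it. Members with few UMIs, among them Il6 and Ccl7, could not be compared at this depth in most classes.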
